A study of Homo sapiens with 6 samples.

Results

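Histone genes encode the proteins that package DNA into nucleosomes, and 83 of the 28278 gene symbols counted in these libraries belong to them. They were picked by the pattern of their symbols, which uses no measured value, though earlier results of these data were known. They were separated into 70 replication-dependent genes and 13 genes of histone variants. The replication-dependent class comprises 6 H1, 17 H2A, 17 H2B, 15 H3 and 15 H4 genes. Of the 70, 55 lie in the large cluster on chromosome arm 6p, 12 on 1q21 and 2 on 1q42. In total, 39 of the 83 genes had enough counts to be tested (30 replication-dependent and 9 variant genes), and 12 genes (11 replication-dependent and 1 variant) were listed at 0 in every library.

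Replication-dependent histone genes are transcribed mainly in S phase, when new DNA has to be packaged, under the coactivator NPAT, a target of the kinase formed by cyclin E and CDK2. Their mRNAs normally end not in a poly(A) tail but in a short stem-loop, which is bound by the stem-loop binding protein SLBP and cut by a complex that contains the U7 small nuclear ribonucleoprotein. Variant histone genes are expressed also outside S phase, mostly carry introns and poly(A) tails, and supply proteins such as H2A.Z and macroH2A that are placed at particular regions of chromatin.

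The study compared HCT116 cells, an established human line from a colon carcinoma, carrying an shRNA against TRIM21 (shTRIM21, genotype labelled TRIM21 knockdown, 3 libraries) with HCT116 cells carrying a scrambled shRNA (shControl, genotype labelled WT, 3 libraries). TRIM21 is a ubiquitin ligase and antibody receptor of the cytosol. All cells received the shRNA by lentivirus and puromycin at 5 µg/ml from 36 h after infection for 2 to 3 weeks, and both groups are labelled day 21. Total RNA was depleted of ribosomal RNA (rRNA) rather than selected for poly(A), so histone mRNA without a tail was not removed by a poly(A) step. How fully the counts hold such mRNA was not tested. Replication-dependent genes held 3.53% to 4.98% of all histone counts as listed. The sample titles call the replicates biological (biol rep) but do not say that they were separate cultures. The p-values here therefore reflect the spread among these libraries alone, and that spread may be technical.

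Library totals were 22656160 to 25842818 counts in shTRIM21 and 24646400 to 27123657 counts in shControl, and rRNA genes held 9.55% to 15.2% of the counts in shTRIM21 and 6.69% to 14.7% in shControl, lowest in replicate 3 of each group. TRIM21 itself had 225, 182 and 173 counts in shTRIM21, against 288, 286 and 443 counts in shControl. Its log2 fold change was -0.73 ± 0.17 (SE, adjusted p = 0.0124, edgeR's quasi-likelihood test, adjusted by Benjamini-Hochberg), and it missed the threshold without shTRIM21 replicate 3 (-0.62, adjusted p = 0.0734). The list of 8 colon epithelial markers summed to 479 to 513 CPM (counts relative to the scaled library size) in shTRIM21 and 486 to 493 CPM in shControl. Endothelial, fibroblast and leukocyte lists each summed to at most 0.193 CPM in shTRIM21 and 0.249 CPM in shControl, with COL1A2, DCN and CDH5 at 0. Across all 14002 genes tested, 620 (4.43%) were higher and 652 (4.66%) were lower in shTRIM21 at an adjusted p under 0.05, which together make 9.08%.

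The stem-loop marks the replication-dependent genes in sequence. A motif of 16 bases (GG, 2 free bases, CTT, 1 free base, T, 1 free base, AG, 2 free bases and CC) was searched for on the transcribed strand in the first 150 bases after the stop codon of 18989 protein-coding genes with at least 30 bases of annotated 3′ UTR. It occurred in 35 of them (0.184%), of which 31 were histone genes. Among replication-dependent genes it was present in 30 of the 34 with such an annotation, and among the 13 variant genes in 1, H2AX. The sites are shown for H2BC9, H2AC18 and H2AC19, which were higher in shTRIM21, and for H4C11 and H2AX, which did not pass the test. The 16 bases of the motif are in capitals, from the GRCh38 sequence with GENCODE annotation, each on the strand of its gene.
H2BC9: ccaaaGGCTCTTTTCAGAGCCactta
H2AC18 and H2AC19: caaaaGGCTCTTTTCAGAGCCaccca
H4C11: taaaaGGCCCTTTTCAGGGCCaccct
H2AX: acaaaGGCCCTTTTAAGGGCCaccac
In each site the first 6 bases of the motif are complementary to the last 6, around 4 central bases, and H2AX has the same first and last 6 bases as H4C11. H2AC20 and H2BC12 have no 3′ UTR in the annotation, so their sites were not searched.

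Promoter sequence separates the families further. RefSeq promoters (GRCh38.p14) were found for 64 replication-dependent and 11 variant genes, and the 250 bases before each start were searched on both strands, each motif on its own. The octamer ATTTGCAT, the element that the factor POU2F1 (OCT1) recognises, occurred in 14 of 17 replication-dependent H2B promoters (82.4%) and 11 of 16 H2A promoters (68.8%). It occurred in 0 of 6 H1, 1 of 13 H3 and 0 of 12 H4 promoters of that class, and in 1.63% of all 35116 promoters in the table. CCAAT occurred in 85.9% of replication-dependent promoters and 32% of all, and TATAAA in 67.2% and 10.7%. The 200 bases upstream of the start are shown for H2BC9, H2AC18 and H2AC20, which were higher in shTRIM21, and for H2BC21 and H2BC12, which did not pass the test, with these motifs in capitals on either strand.
H2BC9, chr6:26251414-26251613, plus strand: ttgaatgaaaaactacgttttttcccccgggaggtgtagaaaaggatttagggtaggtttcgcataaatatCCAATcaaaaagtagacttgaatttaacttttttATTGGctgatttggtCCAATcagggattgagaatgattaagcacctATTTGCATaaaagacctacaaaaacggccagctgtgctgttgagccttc
H2AC18, chr1:149842751-149842950, minus strand: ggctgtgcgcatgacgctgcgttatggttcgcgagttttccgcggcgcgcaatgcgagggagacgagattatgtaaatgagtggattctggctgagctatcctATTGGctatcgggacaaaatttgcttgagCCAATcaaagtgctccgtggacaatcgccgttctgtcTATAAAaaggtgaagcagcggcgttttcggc
H2AC20, chr1:149886718-149886917, plus strand: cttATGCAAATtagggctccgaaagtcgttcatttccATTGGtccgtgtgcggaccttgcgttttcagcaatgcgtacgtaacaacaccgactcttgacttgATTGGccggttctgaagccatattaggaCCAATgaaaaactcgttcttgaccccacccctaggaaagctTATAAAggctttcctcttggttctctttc
H2BC21, chr1:149886683-149886882, minus strand: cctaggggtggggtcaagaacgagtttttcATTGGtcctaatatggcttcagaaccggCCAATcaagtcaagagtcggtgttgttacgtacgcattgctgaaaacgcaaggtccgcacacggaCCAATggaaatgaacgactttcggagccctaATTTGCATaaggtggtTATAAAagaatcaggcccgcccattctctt
H2BC12, chr6:27146859-27147058, minus strand: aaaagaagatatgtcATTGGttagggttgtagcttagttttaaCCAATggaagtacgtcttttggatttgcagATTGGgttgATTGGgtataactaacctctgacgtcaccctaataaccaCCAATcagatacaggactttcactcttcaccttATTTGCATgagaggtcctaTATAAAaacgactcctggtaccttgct
H2AC20 and H2BC21 are transcribed away from each other and their windows overlap, so both lines hold the same octamer, read on opposite strands. H2BC9 carries the octamer and CCAAT but no TATAAA in this window, and H2AC18 carries CCAAT and TATAAA but no octamer. The promoter of H2AC19 has the letters of H2AC18 shifted by 1 base.

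Among the 30 tested replication-dependent genes, 4 were higher in shTRIM21 and 0 were lower in edgeR's quasi-likelihood test, against 4.43% higher and 4.66% lower over all genes. H2AC18 and H2AC19 among the 4 held the same counts in every library, so the 4 genes are 3 distinct signals. At an unadjusted p under 0.05 the counts were 4 higher and 1 lower, and DESeq2 and limma-voom also called 0 lower. In the range of levels that these 30 genes span, 0.306 to 20.9 CPM with a median of 0.923 CPM, 2.85% of 6659 genes were higher and 1.26% were lower. Their median log2 fold change was -0.0026, beside 0.01 over all genes, with 15 genes above 0 and 15 below. In 7 of the 30 the groups did not overlap in CPM, against 28.1% of all genes. H2AC20 passed the filter on low counts only through shTRIM21, where it is high, so its call is a description and counts for nothing here. Without it 3 of 29 genes were higher, and with the same-count copies also taken once 2 of 27, which are H2AC18 and H2BC9. RNA from whole cultures cannot tell a change in the share of cells in S phase from a change in histone RNA per cell.

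**Figure D1:**
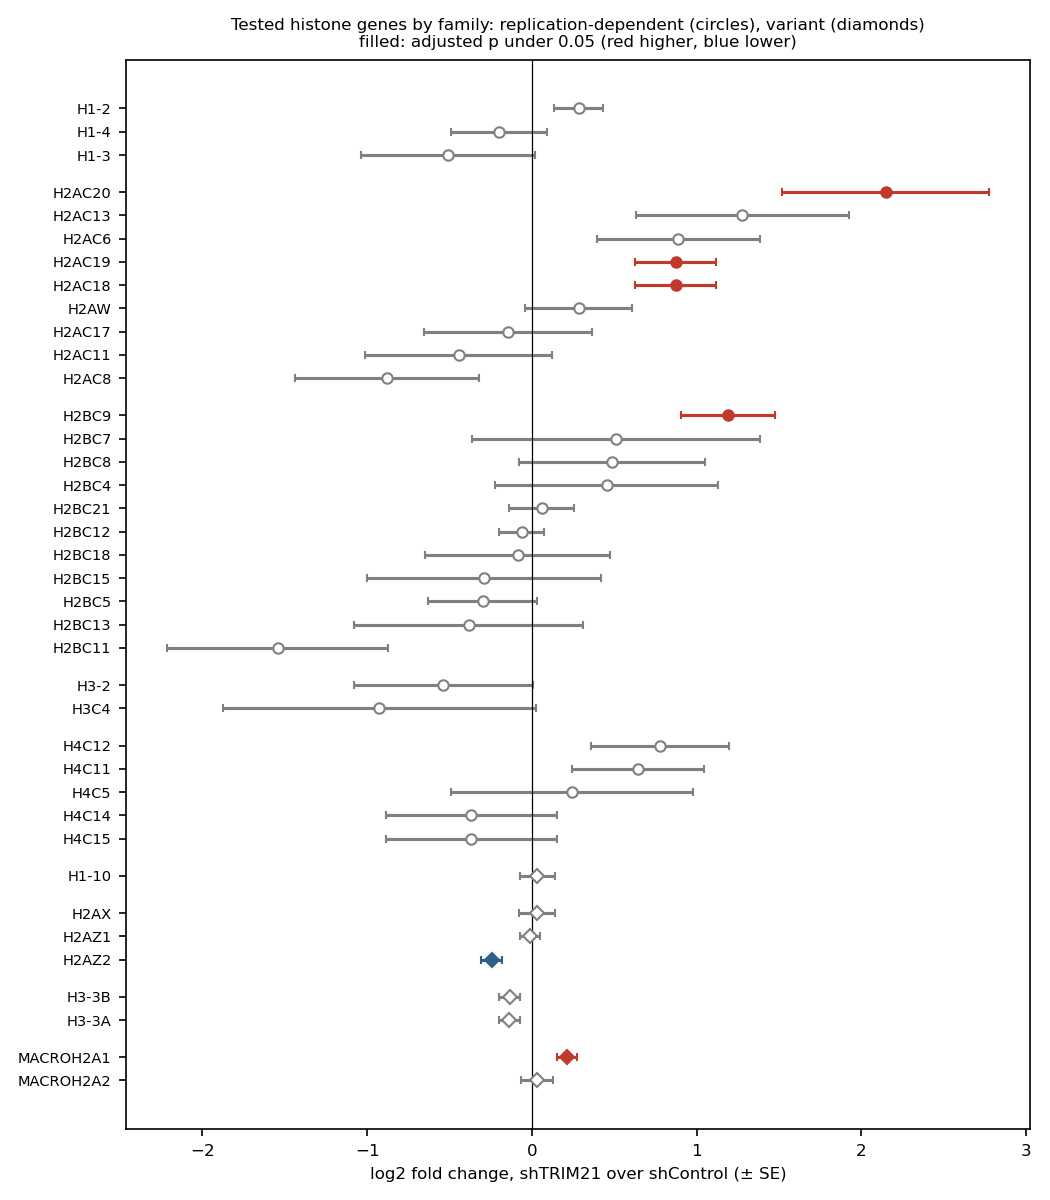
Log2 fold change of shTRIM21 over shControl (x axis, bars ± SE) for the tested histone genes reported here, grouped by family (rows), with replication-dependent genes as circles and variants as diamonds. Filled symbols passed an adjusted p of 0.05, red for higher and blue for lower; replication-dependent genes spread from -1.54 to 2.15, while variants lie between -0.25 and 0.21.

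The linker histones H1, which bind DNA where it enters and leaves the nucleosome, held 3 tested genes of 6, and none passed the test (0 also at an unadjusted p under 0.05). H1-2 was the most abundant, with 410, 370 and 334 counts in shTRIM21 and 326, 326 and 304 counts in shControl. Its CPM values overlapped between the groups, and its log2 fold change was 0.28 ± 0.15 (SE, adjusted p = 0.272). H1-3 varied most between libraries, with 59, 14 and 51 counts in shTRIM21 and 62, 97 and 17 counts in shControl. H1-5 was among the genes listed at 0 in all libraries, and since CANX and RPL7A, which nearly every cell transcribes, are also at 0 in these tables, that 0 is not read as absence of the RNA.

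Of the 9 tested replication-dependent H2A genes, 3 were higher and 0 were lower (4.43% and 4.66% over all genes), and log2 fold changes ranged from -0.88 to 2.15. With the same-count copies taken once and without H2AC20, 1 of 7 was higher and the median log2 fold change was 0.28, against 0.87 over the 9, which is the value of the copied pair itself. H2A is a core histone that pairs with H2B. H2AC18 (ENSG00000203812, chr1:149842188-149842736, minus strand) and H2AC19 (ENSG00000272196, chr1:149851061-149851624, plus strand) are copies on 1q21 whose coding sequences of 393 bases are 100% identical. Each was listed with 235, 146 and 208 counts in shTRIM21 and 146, 103 and 81 counts in shControl. The lowest shTRIM21 library stood at 6.56 CPM and the highest shControl library at 5.97 CPM, so the groups did not overlap but lay close. Each averaged 7.94 ± 1.33 CPM in shTRIM21 and 4.36 ± 1.55 CPM in shControl (SD, n = 3 each), a 1.83-fold difference (log2 0.87 ± 0.24 SE, adjusted p = 0.0309, edgeR). Which of the copies the reads came from cannot be told apart. The call was lost without shTRIM21 replicate 1 (0.75, adjusted p = 0.131), shTRIM21 replicate 3 (0.87, adjusted p = 0.0969), shControl replicate 2 (0.85, adjusted p = 0.0748) or shControl replicate 3 (0.65, adjusted p = 0.0683), and when GC content and length entered as an offset (0.62, adjusted p = 0.0601).

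H2AC20 (ENSG00000184260, chr1:149886975-149887364, plus strand), another H2A gene of 1q21, had the largest fitted change but few reads, and entered the test only through shTRIM21. It had 20, 15 and 30 counts in shTRIM21 and 5, 3 and 7 counts in shControl. All shTRIM21 libraries lay above all shControl libraries, at 0.873 ± 0.254 CPM against 0.192 ± 0.0642 CPM (SD, n = 3 each). The log2 fold change was 2.15 ± 0.63 (SE, adjusted p = 0.0381, edgeR), and the call was lost in limma-voom (adjusted p = 0.0536), with no filter on low counts (adjusted p = 0.0887), with that same GC and length offset (1.82, adjusted p = 0.0653) and in each fit that left out a library other than shControl replicate 3, where the log2 fold change ranged from 1.89 to 2.39 and the adjusted p reached 0.168. Its divergent neighbour H2BC21, chosen after its values were seen, had 160, 146 and 193 counts in shTRIM21 and 141, 140 and 224 counts in shControl. H2BC21 overlapped between the groups, with a log2 fold change of 0.06 ± 0.20 (SE, adjusted p = 0.900). Whether H2AC20 and H2BC21 differ from each other in their change was not tested. At the other end of the family, H2AC8 had 18, 26 and 20 counts in shTRIM21 and 66, 43 and 12 counts in shControl, and its log2 fold change of -0.88 ± 0.56 (SE) did not pass (adjusted p = 0.376).

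H2B, the partner of H2A, had 11 tested genes of 17. Of these, 1 was higher and 0 were lower, against 4.43% and 4.66% over all genes, and their median log2 fold change was -0.06. The gene that passed was H2BC9 (HIST1H2BH, ENSG00000275713, chr6:26251651-26253710, plus strand), with 151, 115 and 135 counts in shTRIM21 and 35, 57 and 94 counts in shControl. The shTRIM21 libraries lay close together at 5.17 to 5.93 CPM, and all shControl libraries were lower and more scattered, at 1.43 to 3.35 CPM. The means were 5.44 ± 0.424 CPM in shTRIM21 and 2.37 ± 0.958 CPM in shControl (SD, n = 3 each), a 2.28-fold difference (log2 1.19 ± 0.29 SE, adjusted p = 0.0139, edgeR). Without shTRIM21 replicate 1 (1.12, adjusted p = 0.0589) or shControl replicate 1 (0.93, adjusted p = 0.0622) it no longer passed. H2BC9 overlaps no other annotated gene. Its closest relative among the H2B genes with a coding sequence of the same length, H2BC6, is 94% identical over 381 bases. H2BC6 was listed at 0 in every library, which is not read as absence of its RNA. Whether reads of related genes were counted for H2BC9 was not tested. The annotated 3′ UTR of H2BC9 runs to 1679 bases, past the stem-loop printed above, and counts per gene do not separate RNA that ends at the stem-loop from longer RNA.

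The most abundant replication-dependent gene, H2BC12, had 493, 385 and 642 counts in shTRIM21 and 502, 482 and 674 counts in shControl. Its levels of 20.5 ± 3.88 CPM in shTRIM21 and 21.4 ± 2.28 CPM in shControl (SD, n = 3 each) overlapped, with a log2 fold change of -0.06 ± 0.14 (SE, adjusted p = 0.837). H2BC11 had the lowest fold change of the class, with 8, 2 and 12 counts in shTRIM21 and 12, 37 and 17 counts in shControl. Its groups did not overlap in CPM, and its log2 fold change of -1.54 ± 0.67 (SE) did not pass after adjustment (adjusted p = 0.173).

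**Figure D2:**
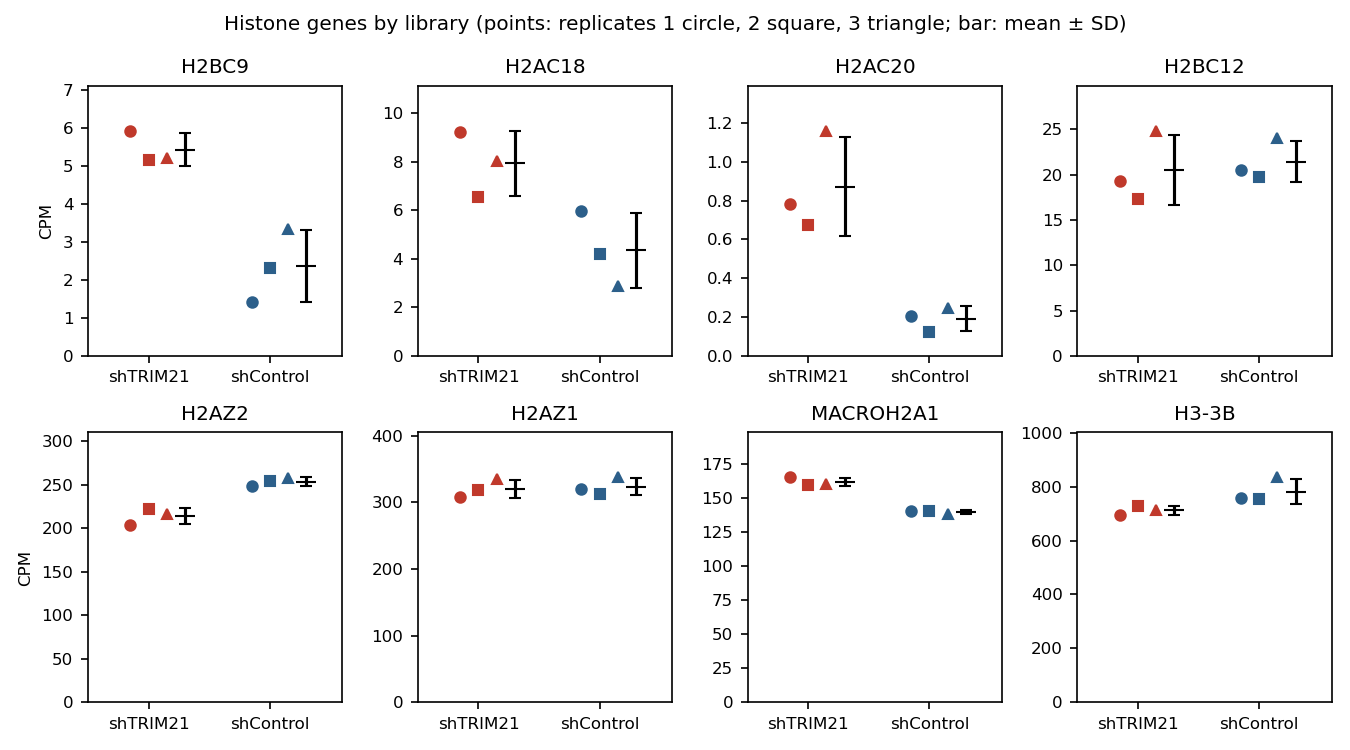
Level in CPM (y axis, from 0) of 8 histone genes in each shTRIM21 library (red, left) and shControl library (blue, right), with mean ± SD beside the points. H2BC9, H2AC18, H2AC20 and MACROH2A1 are above shControl in every shTRIM21 library and H2AZ2 and H3-3B below it, while H2BC12 and H2AZ1 overlap.

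H3 and H4 form the central tetramer of the nucleosome, and none of their replication-dependent genes passed the test (0 also at an unadjusted p under 0.05). H3 had 2 tested genes of 15, H3-2 and H3C4. On the same strand H3-2 overlaps AC239798.4 and H3C4 overlaps AL031777.3. The coding sequence of H3-2 is 98.8% identical to that of H3C13, so reads of these H3 genes cannot be assigned with certainty. H3-2 had 11, 16 and 29 counts in shTRIM21 and 19, 43 and 22 counts in shControl, with a log2 fold change of -0.54 (adjusted p = 0.606), and H3C4 had at most 25 counts in any library and a log2 fold change of -0.93 (adjusted p = 0.613). H4 had 5 tested genes of 15, with log2 fold changes from -0.37 to 0.78. H4C11 had 57, 44 and 37 counts in shTRIM21 and 35, 27 and 30 counts in shControl (log2 0.65 ± 0.40 SE, adjusted p = 0.362), and H4C12, whose coding sequence is 100% identical to it, had 57, 45 and 34 counts in shTRIM21 and 33, 21 and 29 counts in shControl (log2 0.78 ± 0.42 SE, adjusted p = 0.284). Both overlapped between the groups in CPM, and reads of these H4 copies cannot be assigned with certainty. H4C14 and H4C15 likewise carried the same counts in every library.

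Of the 40 replication-dependent genes not tested, 29 had counts, with at most 83 over all libraries together. The gene with 83 counts, H4C3, chosen after its values were seen, had 1, 0 and 8 counts in shTRIM21 and 28, 38 and 8 counts in shControl, and overlapped between the groups through replicate 3. It was called lower where no filter on low counts was applied and where replicate 3 of either group or of both was left out. By position, 3 of 8 tested genes of 1q21 were higher (the H2AC18 and H2AC19 pair and H2AC20) and 1 of 21 on 6p was higher (H2BC9), against 4.43% of all genes. On 1q21 that leaves 1 of 5 with the copies taken once and without H2AC20. The median log2 fold change was -0.01 on 1q21 and -0.06 on 6p, and the difference between the loci was not tested.

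Summed per library, replication-dependent histone RNA was slightly higher in shTRIM21. The 70 genes together held 98.8, 90.5 and 91.1 CPM in shTRIM21 and 88.7, 83.4 and 77.1 CPM in shControl, so the groups did not overlap but were close. The means were 93.5 ± 4.62 CPM in shTRIM21 and 83.1 ± 5.83 CPM in shControl (SD, n = 3 each), a log2 ratio of 0.17. With each set of copies that carry the same counts taken once, the sums were 84.8 ± 3.69 CPM in shTRIM21 and 77.6 ± 4.11 CPM in shControl, a difference of 7.20 CPM. H2BC9 accounted for 3.07 CPM of it, H2AC18 for 3.58 CPM and H2AC20 for 0.680 CPM, and the remaining genes together for -0.129 CPM. The named genes were set apart for their calls in these same data, and the remainder is a net of differences in both directions. Among the remaining genes, H1-2 averaged 15.2 CPM in shTRIM21 and 12.5 CPM in shControl, and H2BC12 20.5 CPM and 21.4 CPM. No test was made on the sums.

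By family, with the copies again taken once, every replication-dependent sum overlapped between the groups. H2A RNA held 19.5, 16.08 and 16.15 CPM in shTRIM21 and 16.16, 11.1 and 10.4 CPM in shControl, a ratio of means of 1.37. Only with the pair H2AC18 and H2AC19 added as 2 genes did H2A not overlap, at 22.6 to 28.7 CPM in shTRIM21 and 13.3 to 22.1 CPM in shControl (ratio 1.49). H2B stood at 38.9 ± 2.76 CPM in shTRIM21 and 37.6 ± 2.86 CPM in shControl, and H1 at 20.4 ± 2.84 CPM in shTRIM21 and 18.96 ± 4.22 CPM in shControl, with H4 at 6.04 ± 0.785 CPM in shTRIM21 and 5.52 ± 1.00 CPM in shControl. H3 was at 2.22 ± 0.608 CPM in shTRIM21 and 3.04 ± 0.200 CPM in shControl (SD, n = 3 each).

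**Figure D3:**
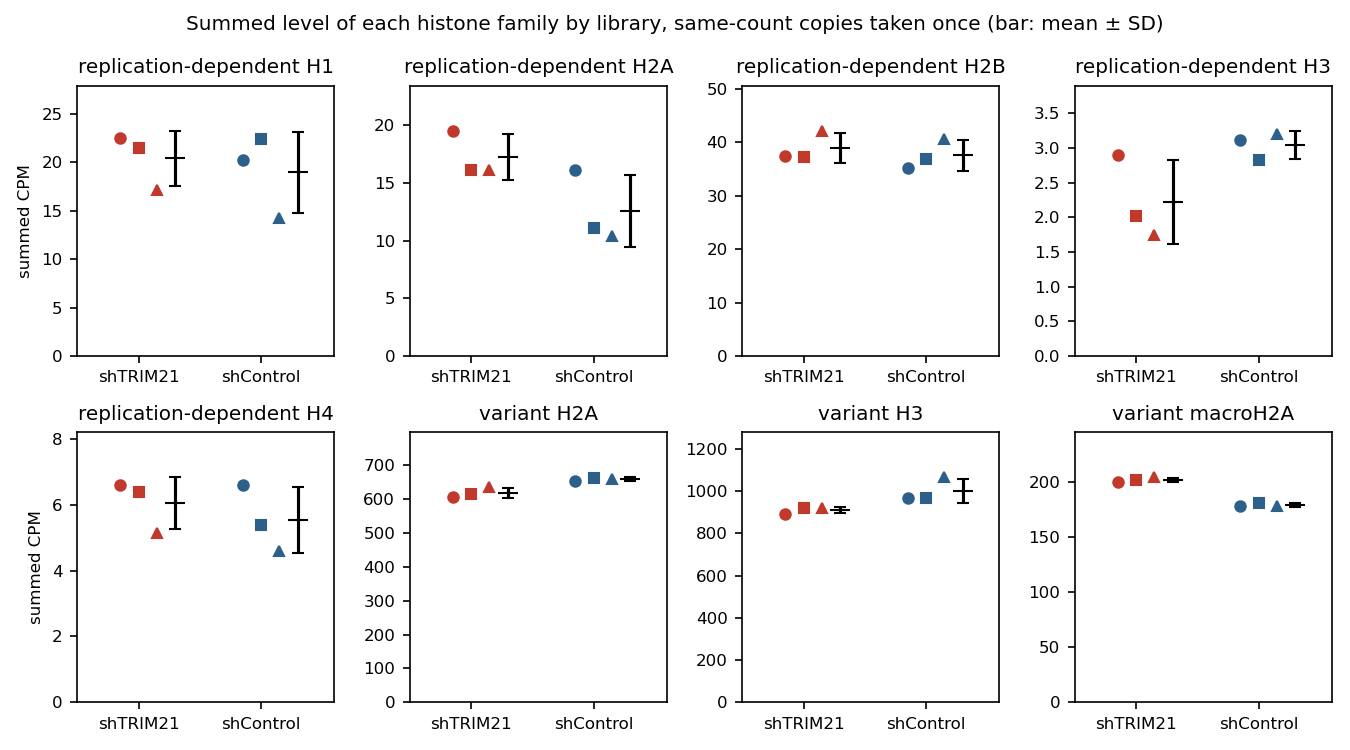
Summed level in CPM (y axis, from 0) of each histone family, with same-count copies taken once, in each shTRIM21 library (red, left) and shControl library (blue, right), with mean ± SD beside the points. MacroH2A lies above shControl in all shTRIM21 libraries and variant H2A and H3 below it, while replication-dependent H1, H2A, H2B, H3 and H4 overlap.

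Variant genes held nearly all histone counts as listed, since replication-dependent genes held 3.53% to 4.98% of the counts of all histone genes. Copies with the same counts are each included there, and with them taken once the share of the same total was 3.35% to 4.49%. How reads with several positions were counted is not given, so the share of near-identical replication-dependent copies may be overstated or understated. The variant sums were 1887, 1911 and 1931 CPM in shTRIM21 and 1996, 2018 and 2109 CPM in shControl, all shTRIM21 libraries lower, with a log2 ratio of -0.10. Per length of the longest annotated coding transcript, H2AZ1 stood at 327 CPM per kb in shTRIM21 and 330 CPM per kb in shControl, and H3-3B at 263 CPM per kb in shTRIM21 and 289 CPM per kb in shControl. On the same scale the highest replication-dependent gene, H2BC12, stood at 53.8 CPM per kb in shTRIM21 and 56.2 CPM per kb in shControl. Of the 9 tested variant genes, 1 was higher and 2 were lower (4.43% and 4.66% over all genes), with log2 fold changes from -0.25 to 0.21 and a median of -0.01. In 5 of the 9 the groups did not overlap, beside 28.1% of all genes.

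H2AZ2 (ENSG00000105968), which encodes an isoform of H2A.Z, a variant found at promoters, was lower. It had 5189, 4941 and 5617 counts in shTRIM21 and 6082, 6240 and 7245 counts in shControl. Its level was 214 ± 9.51 CPM in shTRIM21 and 254 ± 4.67 CPM in shControl (SD, n = 3 each), with no overlap (log2 -0.25 ± 0.06 SE, adjusted p = 0.0169, edgeR). The other gene of H2A.Z, H2AZ1, had 7853, 7078 and 8670 counts in shTRIM21 and 7816, 7649 and 9474 counts in shControl, overlapped, and had a log2 fold change of -0.01 ± 0.06 (SE, adjusted p = 0.933). Whether the H2A.Z genes differ from each other in their change was not tested. The H2AZ2 call was lost without shTRIM21 replicate 1 (adjusted p = 0.0706), shTRIM21 replicate 3 (adjusted p = 0.0675) or shControl replicate 2 (adjusted p = 0.0546), and with scaling by library totals alone (adjusted p = 0.0632).

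MACROH2A1 (ENSG00000113648), whose protein carries a macrodomain and is known from silenced chromatin, was higher. It had 4205, 3552 and 4138 counts in shTRIM21 and 3433, 3432 and 3874 counts in shControl. Its level was 161 ± 3.05 CPM in shTRIM21 and 140 ± 1.39 CPM in shControl (SD, n = 3 each), with no overlap (log2 0.21 ± 0.06 SE, adjusted p = 0.0372, edgeR). C5orf66 and AC026691.1 overlap MACROH2A1 on the opposite strand, and without a stated strand setting their reads cannot be told apart. The call was lost in each fit that left out a library other than shControl replicate 3, where the log2 fold change was 0.20 to 0.22 and the adjusted p reached 0.118, and with scaling by library totals alone (adjusted p = 0.120).

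H3-3B, the variant gene with the most counts, encodes H3.3, an H3 variant deposited outside S phase. It had 17744, 16206 and 18451 counts in shTRIM21 and 18544, 18426 and 23414 counts in shControl. The groups did not overlap in CPM, and the log2 fold change of -0.13 ± 0.06 (SE) did not pass (adjusted p = 0.215). With GC content and length as an offset it was called lower (-0.14, adjusted p = 0.0148). H1-10, H2AX, H3-3A and MACROH2A2 also did not pass the test, with log2 fold changes between -0.14 and 0.03.

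**Figure D4:**
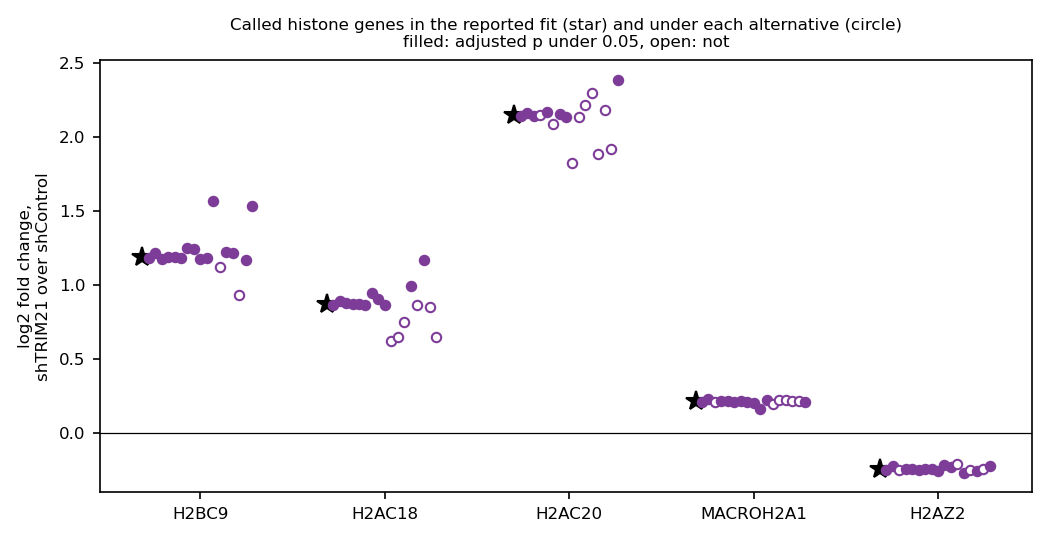
Log2 fold change of shTRIM21 over shControl (y axis) for 5 of the called histone genes (H2AC19 repeats H2AC18) in the reported fit (star) and under each alternative (circles), filled where the adjusted p was under 0.05. All values keep the direction of the reported fit, and every gene has open circles, such as 0.93 for H2BC9 without shControl replicate 1.

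The genes that make, process and carry histones were read from lists of 57 genes, of which 56 were tested: 3 were higher, 9 were lower and 44 did not pass, against 4.43% higher and 4.66% lower over all genes. Their median log2 fold change was -0.03 and their range -0.37 to 0.45. The shares over all genes span every level, and a share at matched levels was computed only for the replication-dependent genes. Among 12 genes of histone transcription, CCNE1 (cyclin E) and E2F1, a factor of S-phase entry, were higher, while CCNA2 (cyclin A) and YY1, a zinc finger factor, were lower. CCNE1 stood at 41.6 ± 1.76 CPM in shTRIM21 and 30.6 ± 0.837 CPM in shControl (SD, n = 3 each, log2 0.44 ± 0.09 SE, adjusted p = 0.00451, edgeR). E2F1 had a log2 fold change of 0.45 (adjusted p = 0.0405), CCNA2 of -0.27 (adjusted p = 0.0198) and YY1 of -0.25 (adjusted p = 0.0280). Of 17 alternatives, CCNE1 lost its call in 0, E2F1 in 8, CCNA2 in 4 and YY1 in 5. E2F1 was lost without any library other than shTRIM21 replicate 1 (adjusted p up to 0.158), CCNA2 without shTRIM21 replicate 1 or 3 (up to 0.117), and YY1 without any shTRIM21 library or shControl replicate 2 (up to 0.119). NPAT did not pass, at 75.6 ± 9.51 CPM in shTRIM21 and 74.5 ± 4.60 CPM in shControl (SD, n = 3 each, log2 0.02, adjusted p = 0.924), nor did CASP8AP2 (FLASH), a partner of the U7 machinery (log2 -0.04, adjusted p = 0.794).

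Of 19 tested genes of 3′ end processing, 3 were lower and 0 were higher, against 4.66% and 4.43% of all genes (0 higher also at an unadjusted p under 0.05), with 14 below 0 and a median log2 fold change of -0.07. ZNF473, a zinc finger protein of the U7 particle, was lower by a log2 fold change of -0.29 (adjusted p = 0.0225), CPSF2, a subunit of the histone cleavage complex, by -0.25 (adjusted p = 0.0244), and PCF11, a general factor of 3′ end formation, by -0.24 (adjusted p = 0.0468). With GC content and length as an offset, CPSF2 (-0.13, adjusted p = 0.0994) and PCF11 (-0.16, adjusted p = 0.0788) were lost. ZNF473 was lost without replicate 1 or 2 of either group (adjusted p up to 0.105), CPSF2 without replicate 1 of either group or shTRIM21 replicate 2 (up to 0.110), and PCF11 without replicate 1 of either group, shTRIM21 replicate 3 or shControl replicate 2 (up to 0.204). SLBP had 103 ± 3.56 CPM in shTRIM21 and 105 ± 7.98 CPM in shControl (SD, n = 3 each), overlapped, and did not pass (log2 -0.03, adjusted p = 0.839).

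Of 25 histone chaperones and carriers, 4 were lower and 1 was higher, against 4.66% and 4.43% of all genes. NAP1L1, a chaperone of H2A and H2B, was lower, at 826 ± 69.1 CPM in shTRIM21 and 1069 ± 89.5 CPM in shControl (SD, n = 3 each, log2 -0.37 ± 0.08 SE, adjusted p = 0.00436, edgeR). ANP32E, a chaperone that removes H2A.Z, was lower (-0.26, adjusted p = 0.0357), as were HJURP, the chaperone of the centromeric H3 variant (-0.25, adjusted p = 0.0316), and SUPT16H, a subunit of the FACT complex (-0.21, adjusted p = 0.0349). CABIN1, a partner of the HIRA complex that deposits H3.3, was higher (0.39, adjusted p = 0.0253). NAP1L1 lost its call in 0 of 17 alternatives. HJURP and SUPT16H were lost without any library other than shControl replicate 3 (adjusted p up to 0.144), ANP32E without any shTRIM21 library or shControl replicate 3 (up to 0.148), and CABIN1 without any shTRIM21 library (up to 0.0925). Genes of DNA replication share S phase with the histone genes. Of the 45 listed, 2 were higher and 1 was lower, against 4.43% and 4.66% of all genes. Those higher were MCM6 at 0.57 and MCM5 at 0.45, UHRF1 was lower at -0.21, and the median log2 fold change of the 45 was 0.01. The part of S phase in the histone values was not tested.

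**Figure D5:**
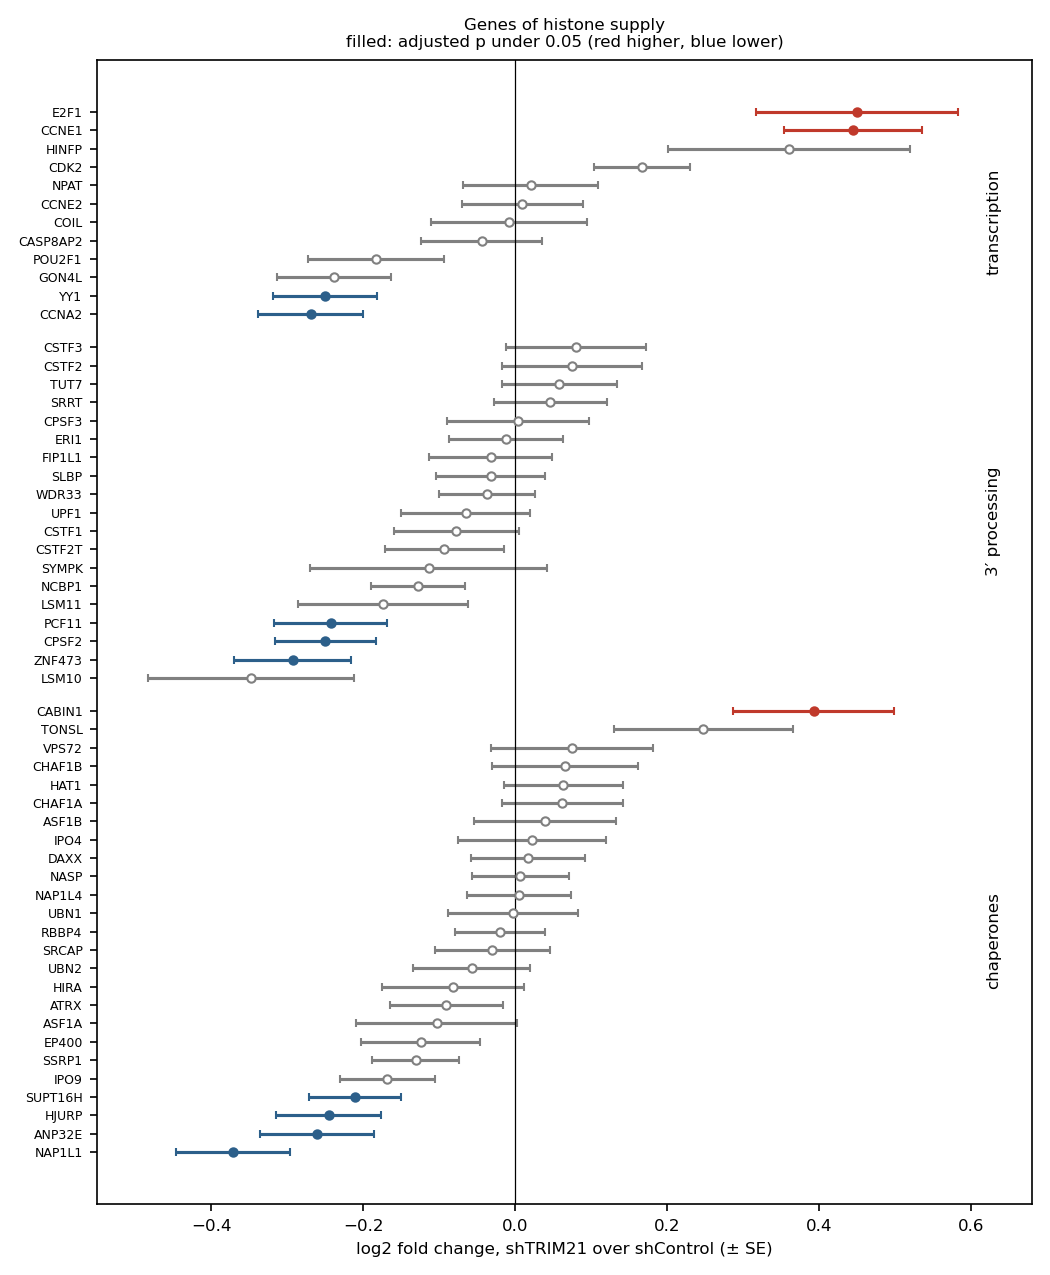
Log2 fold change of shTRIM21 over shControl (x axis, bars ± SE) for the 56 tested genes of histone transcription, 3′ end processing and histone chaperoning (rows). Filled symbols passed an adjusted p of 0.05, red for higher (3 genes) and blue for lower (9 genes), and all values lie between -0.37 and 0.45.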

How the data were processed

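Gene expression was measured by RNA-seq in 3 shTRIM21 and 3 shControl libraries of HCT116 cells. What the authors deposited is a table of raw, unscaled read counts by gene symbol for every library. Tools named in the submitters' processing notes are TopHat2 2.1.1, edgeR 3.38.1 and limma 3.52.2, and the genome is hg38. How reads were counted (tool, annotation, strand, reads with several positions) is not given in the sources used here, which matters for near-identical histone copies.

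Counts were compared in R 4.3.3 with edgeR 4.0.16, after the filterByExpr step (about 0.398 CPM in at least 3 libraries) and TMM scaling, by the quasi-likelihood test with no other term, and Benjamini-Hochberg adjustment over all 14002 genes passing the filter, at a threshold of 0.05. CPM are computed on the TMM-scaled library size. The SE is the log2 fold change divided by the square root of F. Depth was 22656160 to 27123657 counts. In data simulated from these libraries, 99% of 2-fold changes were recovered at 5 CPM or more and 26.3% below 5 CPM, where 24 of the 30 tested replication-dependent genes lie in both groups, and 4.93% of calls were false. Lengths, overlaps and 3′ UTRs were read from GENCODE v29 on GRCh38 (82 of 83 genes matched), and promoters from RefSeq (GRCh38.p14), which matched 75.

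The text names TRIM21, the histone genes past the threshold, the tested gene with the most counts and the extreme fold changes of each family and class, the supply genes past the threshold, and NPAT, SLBP and CASP8AP2, except for 1 gene that entered the fits and counts and is not reported here. Members and lists were chosen with earlier results of these data known. Alternatives covered RLE, upper-quartile and library-total scaling, no filter, at least 10 counts in every library, DESeq2 1.42.0, limma-voom (limma 3.58.1), the replicate number as a block, rRNA genes left out, an offset for GC content and length, replicate 3 of both groups left out, and each library left out. Counts and sums with same-count copies taken once, or without H2AC20, were chosen after seeing the data.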

Additional observations from a re-analysis of the deposited data

How the results depend on the processing

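All 7 histone calls kept their direction under every alternative run, and 0 of 7 kept their adjusted p under 0.05 in all of them. Of the 12 called supply genes, 2 (CCNE1 and NAP1L1) did. With scaling by library totals alone, 0 variant genes were higher, 0 were lower, and 1 supply gene was lower. With no filter, 1 replication-dependent gene (H4C3) was lower. With GC content and length as an offset (values known for 39 of 39 histone genes and 86.1% of all), 1 replication-dependent gene was higher and 4 variants were lower, H3-3A and H3-3B among them. Without replicate 3 of both groups, 1 replication-dependent gene was higher and 1 lower, 1 variant was lower, 1 supply gene was higher and 5 lower, and TRIM21 was at -0.45 (adjusted p = 0.114). Leaving out each library gave 0 to 3 replication-dependent genes higher and 0 to 1 lower, 0 to 1 variants higher and 0 to 2 lower, 1 to 2 supply genes higher and 1 to 10 lower, 602 to 1737 genes in all, and -0.82 to -0.56 for TRIM21. The replication-dependent genes called higher were 0 without shTRIM21 replicate 1, 1 without shTRIM21 replicate 3 or shControl replicate 2, 2 without shControl replicate 1 or 3, and 3 without shTRIM21 replicate 2. Counting same-count copies once gave 3, leaving out H2AC20 gave 3, and both gave 2.

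The sign turned for 7 genes that were not called. H2AZ1 was at 0.0053 with upper-quartile scaling, CASP8AP2 at 0.045 with GC content and length as an offset, and, without replicate 3 of both groups, NPAT at -0.0014 and SLBP at 0.015. Leaving out each library gave -0.045 to 0.026 for H2AZ1, -0.099 to 0.035 for CASP8AP2, -0.059 to 0.12 for NPAT, -0.068 to 0.039 for SLBP, -0.22 to 0.044 for H2BC12, -0.97 to 0.085 for H1-3 and -2.32 to 0.17 for H3C4. The cause of these changes was not tested. With the replicate number as a block, 4 replication-dependent genes were higher, as without it, and 1699 genes passed in all. Deviations of same-numbered libraries correlated at 0.268, -0.237 and 0.22, and those of differently numbered libraries at -0.423 to 0.348. Deviations within a group depend on each other, so these values cannot show whether the numbers pair the samples. Few counts limit most replication-dependent genes.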
